A study of Rattus norvegicus with 8 samples.

Results

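The 10 genes described here encode heat shock proteins and chaperonins of the rat: Hsp90aa1 and Hsp90ab1 (cytosolic HSP90), Hspa8, Hspa1b and Hspa5 (members of the HSP70 family), Hsph1 (HSP110), Dnajb1 (HSP40), Hspb1 (a small heat shock protein), and Hspd1 and Hspe1 (the mitochondrial chaperonin HSP60 and its co-chaperonin HSP10). They were taken by gene name from the 17446 genes counted by RNA sequencing of whole blood, and were chosen with earlier results of these data known. All 8 libraries came from wild type male Wistar rats. The study's methods give the rats as 12–14 weeks old, without an age at each sampling. Hypertension was induced either by Angiotensin II (AngII, 0.4 mg/kg/day from an osmotic minipump) or by deoxycorticosterone acetate with high salt (DOCA–HS, 100 mg/kg once weekly under the skin, with 0.9% NaCl and 1% KCl in the drinking water). Each model had 2 libraries from the time when hypertension was established (week 1 of AngII, week 3 of DOCA–HS) and 2 libraries after Chios mastic gum (CMG), a resin given at 220 mg/kg daily for 4 weeks (week 5 and week 7). No library of rats without CMG at the later time was analysed here, so CMG and the 4 further weeks of each model cannot be told apart, and the AngII minipump was a 4-week model by the study's methods. Neither the labels nor the methods tie a library to a rat, so the p-values below measure the spread between libraries.

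Chaperones bind proteins that are unfolded or newly made and help them to fold. HSP70 proteins work in an ATP-driven cycle in which HSP40 proteins deliver the substrate and HSP110 proteins exchange the nucleotide, HSP90 acts later on a narrower set of clients, and HSP60 with HSP10 forms a folding chamber in mitochondria. Under heat or protein damage the transcription factor HSF1 binds heat shock elements in the promoters of inducible members, whereas Hspa5 (BiP), the HSP70 of the endoplasmic reticulum, is induced by the unfolded protein response through another element. In blood these transcripts come from white cells and from reticulocytes, the young red cells that still hold RNA.

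The promoters of 4 members are shown, of which 3 hold a heat shock element of 3 units and Hspa5 holds another element. RefSeq promoter windows on the GRCr8 build were at hand for 8 of the 10 members, and not for Hsp90aa1 and Hspa1b. The 250 bases before the annotated start are printed 5′ to 3′ on the gene's strand. Capitals mark a heat shock element of 3 units (TTCNNGAANNTTC or GAANNTTCNNGAA) in the first 3 genes, and the ER stress response element (CCAAT and CCACG 9 bases apart) in Hspa5. Hspa8 lies at chr8:50080264-50080513, Hsph1 at chr12:10427118-10427367, Hspe1 at chr9:64084077-64084326 and Hspa5 at chr3:38452766-38453015, each on the plus strand.
Hspa8: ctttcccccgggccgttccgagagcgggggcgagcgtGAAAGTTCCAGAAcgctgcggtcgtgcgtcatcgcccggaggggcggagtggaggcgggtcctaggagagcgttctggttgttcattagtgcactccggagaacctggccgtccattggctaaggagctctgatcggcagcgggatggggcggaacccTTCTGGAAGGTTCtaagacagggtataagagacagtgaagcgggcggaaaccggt
Hsph1: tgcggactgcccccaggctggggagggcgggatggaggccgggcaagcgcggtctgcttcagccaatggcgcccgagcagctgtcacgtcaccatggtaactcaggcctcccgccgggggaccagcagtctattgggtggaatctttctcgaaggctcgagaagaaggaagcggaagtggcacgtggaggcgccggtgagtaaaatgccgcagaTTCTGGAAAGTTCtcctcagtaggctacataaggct
Hspe1: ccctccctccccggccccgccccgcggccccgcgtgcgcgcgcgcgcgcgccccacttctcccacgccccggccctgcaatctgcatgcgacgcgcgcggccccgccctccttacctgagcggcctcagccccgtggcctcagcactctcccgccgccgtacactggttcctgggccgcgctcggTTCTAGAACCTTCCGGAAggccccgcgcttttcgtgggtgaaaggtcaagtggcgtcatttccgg
Hspa5: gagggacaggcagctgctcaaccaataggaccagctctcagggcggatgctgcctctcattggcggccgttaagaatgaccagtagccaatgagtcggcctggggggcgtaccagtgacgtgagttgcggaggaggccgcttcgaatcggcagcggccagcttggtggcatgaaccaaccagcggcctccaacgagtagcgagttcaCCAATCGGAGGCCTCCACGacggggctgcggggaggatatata

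The heat shock element of 3 units, searched on both strands, stood in 0.663% of all 33469 RefSeq rat promoter windows of this length, and in 4 of the 8 members, which were Hspa8, Hsph1, Hspe1 and Hspd1. Hspd1 and Hspe1 are neighbours transcribed away from each other, and the capitals in the Hspe1 stretch are also those of Hspd1, read on the other strand. The ER stress response element stood in 0.0657% of the windows and, among members, in Hspa5. Dnajb1 and Hspb1 held only the shorter form of 2 units (TTCNNGAA or GAANNTTC, in 13.5% of all windows and part of the longer form), and Hsp90ab1 held none of these letters. These are matches of letters in a window and were not measured in these rats.

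Libraries held 4149104 to 13205565 counts, of which 61.9% to 84.3% fell on the hemoglobin genes Hbb and LOC100134871. Levels are given as CPM, the counts of a gene in every 1000000 counts of its library, after scaling with TMM factors, which assume that most genes do not differ and ranged here from 0.343 to 1.88. DOCA–HS after replicate 2 stood apart, with 651764 counts outside hemoglobin. It had 2686 genes that reached 10 counts, and the other libraries had 6097 to 8280. There a floor of 3 counts was worth 2.11 CPM, against 0.166 to 0.507 CPM elsewhere. The scaling sets a part of every level below. Other genes and the gene lists are given on the TMM scale unless stated otherwise. The direction of each tested member was also examined with total counts and with counts outside hemoglobin as the scale. Those scalings moved the median log2 fold change of all genes over CMG to 0.36 and 0.38 in AngII and to -0.76 and -0.41 in DOCA–HS, from -0.01 and -0.04 with TMM, so a member's value under them is to be read against these medians.

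Of the 10 members, 8 were measured well enough to describe and 2 were at or near 0. No count fell on Hspa1b, the stress-inducible HSP70, in any library. A count of 0 allows up to 3 counts, or 0.166 to 0.507 CPM in 7 libraries and 2.11 CPM in DOCA–HS after replicate 2. Its near-identical neighbour Hspa1a had 6 and 3 counts in AngII before, 14 and 6 in AngII after, 0 and 3 in DOCA–HS before, and 3 and 5 in DOCA–HS after, and how reads shared by the pair were assigned is not given in the sources used here. Hspb1, the small heat shock protein HSP27, had 6 counts over all 8 libraries and at most 2 in any of them. Several other members, Hspa8 and Hspe1 among them, have processed pseudogenes whose reads could have been split or dropped in the counting.

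No member that was expressed highly enough to be tested passed the call used by the study, which asks for a log2 fold change above 1.5 or below -1.5 together with an unadjusted p of at most 0.05. In AngII, 0 of the 7 members tested were called after against before CMG, where 1.24% of 7201 genes were, and 0 had an unadjusted p of at most 0.05, where 6.65% of genes had. In DOCA–HS, 0 of 8 members were called, against 2.05% of 7720 genes, and 0 had such a p, against 3.17%. For the average change over both models 0 of 8 were called (0.325% of 7994 genes), 0 had such a p (3.90%), and 0 had all 4 libraries after CMG below the 4 before (2.44%) or above them (1.28%). For the difference of the change between models both counts were 0 of 8 (3.16% and 3.74% of genes). With these shares, 0 of 7 or 8 members is near the background. After Benjamini-Hochberg adjustment over all genes, edgeR's quasi-likelihood test called 0 genes of any kind at 0.05 in these comparisons. The median log2 fold change of the members tested was 0.01 in AngII, where that of all genes was -0.01, and 0.20 in DOCA–HS, where that of all genes was -0.04.

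**Figure D1:**
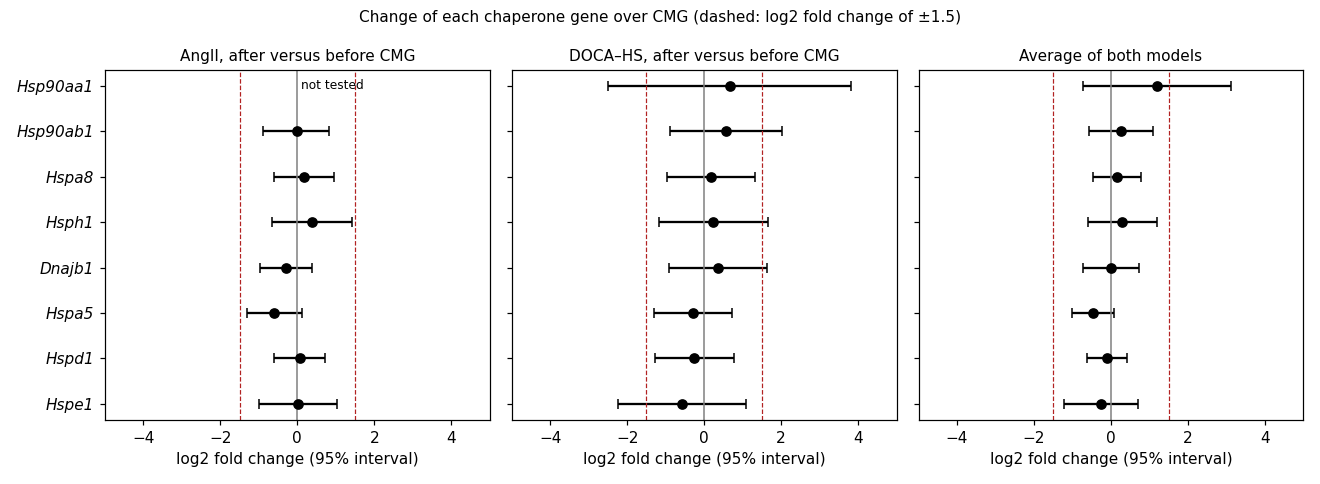
Log2 fold change of each detected chaperone gene after against before CMG in AngII, in DOCA–HS and on average (horizontal axis), with 95% intervals from edgeR, genes on the vertical axis and dashed lines at the call's fold limit of 1.5. Every interval holds 0, those of Hspa5 and Hspd1 are among the narrower ones, and that of Hsp90aa1, from 2 to 18 counts a library, is the widest.

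Hspa5 was the 1 member that lay lower after CMG without overlap in both models on the TMM scale. Its level was 44.9 and 44.7 CPM in AngII before CMG and 32.8 and 25.6 CPM after. In DOCA–HS it was 29.3 and 30.5 CPM before and 26.5 and 21.8 CPM after. On this scale both libraries after CMG lay below both libraries before in each model, as they did with counts outside hemoglobin as the scale, whereas with total counts the groups overlapped in both models. Such an order in both models held for 4.51% of the 7118 genes tested in both (the opposite order for 2.23%, and for no member), and in a single model for 18.6% of genes in AngII and 21.1% in DOCA–HS, so it is not rare.

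The log2 fold change of Hspa5 was -0.60 in AngII (SE 0.31, 95% interval -1.31 to 0.12, unadjusted p = 0.0909, adjusted p = 0.76 by edgeR's quasi-likelihood test with Benjamini-Hochberg adjustment). In DOCA–HS it was -0.29 (SE 0.44, interval -1.30 to 0.72, adjusted p = 0.997 by the same edgeR test), and on average -0.46 (SE 0.25, interval -1.01 to 0.09, unadjusted p = 0.0928). Neither model's value passed the test, and the difference between the models' changes was 0.32 (SE 0.51, interval -0.81 to 1.46). Leaving out each of the 4 libraries of a model in turn gave -0.84 to -0.43 in AngII and -0.45 to -0.16 in DOCA–HS.

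**Figure D2:**
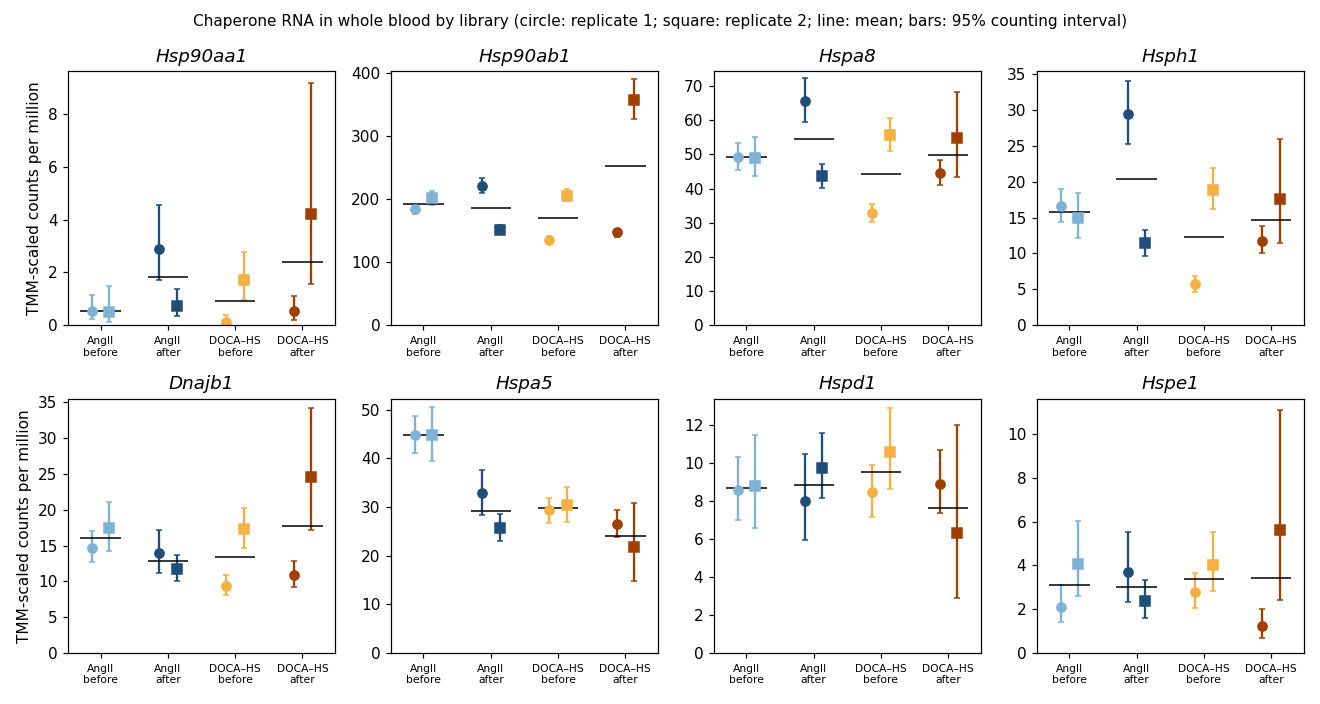
TMM-scaled level in CPM of 8 chaperone genes (vertical axis) in each library by group (horizontal axis), with group means as lines and exact Poisson 95% intervals as bars, which cover counting error only. For Hspa5 the pairs of replicates lie close together and the libraries after CMG lie below those before in each model, whereas for Hsp90aa1, Hsph1 and Hsp90ab1 replicates of 1 group differ as much as groups do.

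A ratio of counts within a library does not depend on the scaling, and shows only that 2 genes changed unequally. Per 100 counts of Hspa8, the constitutive cytosolic HSP70, Hspa5 had 90.9 and 91.1 counts in AngII before CMG and 49.9 and 58.8 after. In DOCA–HS it had 89.1 and 54.8 before and 59.4 and 39.7 after. The AngII groups did not overlap, and the 95% exact binomial intervals, which cover counting error only, reached down to 76.8 before CMG and up to 67.3 after. In DOCA–HS the groups overlapped, since replicate 2 before CMG lay below replicate 1 after. This pair of genes was chosen after its values were seen, and the ratio was not tested.

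T cell markers were read beside Hspa5. The summed level of the 8 T cell markers in the counts, Cd3e and Lck among them, was 168 and 179 CPM before and 110 and 140 CPM after CMG in AngII, and 170 and 173 CPM before and 118 and 114 CPM after in DOCA–HS. The sum was lower after CMG without overlap in both models. Before CMG the sum was alike in both models on the TMM scale. The markers did not all move alike. Of the 8, 5 were lower without overlap in AngII, where 18.6% of all genes were, and 3 in DOCA–HS, where 21.1% were. In AngII 3 had a positive log2 fold change. Here 2 of the 8 markers were at 0 in DOCA–HS after replicate 2 and none in the other libraries. As a percentage of all counts the groups overlapped in AngII, at 0.0162 and 0.0139 before and 0.0101 and 0.0191 after. The part of T cells in the Hspa5 values was not tested, and in bulk blood fewer cells of a type and less RNA per cell cannot be told apart.

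The other genes of the endoplasmic reticulum and its unfolded protein response were read beside Hspa5. Pdia3, a protein disulfide isomerase named after its values were seen, was the 1 of them that was also lower after CMG without overlap in both models, as 4.51% of all genes tested in both were. Its log2 fold changes were -0.08 in AngII (SE 0.29) and -0.10 in DOCA–HS (SE 0.45). In AngII, 0 of 23 tested genes of that list were called (1.24% of all genes) and 1 had an unadjusted p of at most 0.05 (6.65% of all genes), Herpud1, which takes part in degrading misfolded proteins of the endoplasmic reticulum. Its level was 15.6 and 13.8 CPM before and 5.12 and 9.90 CPM after, with a log2 fold change of -0.93 (SE 0.37, adjusted p = 0.709 by edgeR's test with Benjamini-Hochberg adjustment). In DOCA–HS, 1 of 24 was called (2.05% of all genes), Ddit3, which encodes the stress factor CHOP. Ddit3 was at 2.54 and 4.88 CPM before and 7.07 and 19.7 CPM after, a log2 fold change of 1.75 (SE 0.63, adjusted p = 0.997 by the edgeR test), and its highest level was that of the sparse DOCA–HS after replicate 2, from 28 counts. Others of the list went the other way in AngII. There 6 of the 23 were higher after CMG without overlap (21.3% of all genes) and 5 were lower (18.6%). Dnajc10, at 0.92 (SE 0.41), and Eif2ak3, at 0.73 (SE 0.33), were among the higher ones. The list's median log2 fold change was -0.06 in AngII and 0.00 in DOCA–HS.

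The 2 cytosolic HSP90 genes were measured at very different precision. Hsp90ab1, the constitutive form, was at 184 and 201 CPM in AngII before, 221 and 151 CPM in AngII after, 135 and 205 CPM in DOCA–HS before, and 147 and 357 CPM in DOCA–HS after. On the TMM scale the groups overlapped in each comparison. In AngII both libraries after CMG lay above both before with total counts and with counts outside hemoglobin, and in DOCA–HS both lay below with total counts. The high value of 357 CPM rests on the scaling, since with total counts the same library was the lowest of the 8, at 122 CPM. The log2 fold change of Hsp90ab1 after against before CMG was -0.02 in AngII (SE 0.37, interval -0.88 to 0.83) and 0.57 in DOCA–HS (SE 0.64, interval -0.89 to 2.03), which became 0.30 and -0.56 with total counts, where the medians of all genes were 0.36 and -0.76, and 0.30 and -0.06 with counts outside hemoglobin, where they were 0.38 and -0.41.

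Hsp90aa1, the stress-inducible HSP90, had 7 and 3 counts in AngII before, 18 and 10 in AngII after, 2 and 16 in DOCA–HS before, and 7 and 6 in DOCA–HS after. As levels these were 0.55 and 0.507 CPM, 2.88 and 0.739 CPM, 0.111 and 1.70 CPM, and 0.538 and 4.22 CPM. The AngII libraries after CMG lay above those before under each of the 3 scalings, as did 21.3% of genes on the TMM scale, and the DOCA–HS groups overlapped. The gene was too sparse to pass the filter in AngII. Without a filter its log2 fold change there was 1.61, which passed the call (unadjusted p = 0.0184, adjusted p = 0.516 by edgeR's test with Benjamini-Hochberg adjustment), and without AngII after replicate 2 it was 2.41. Its log2 fold change was 0.67 in DOCA–HS (SE 1.38, interval -2.49 to 3.82) and 1.20 on average (SE 0.87, interval -0.72 to 3.11, adjusted p = 1 by edgeR's test with Benjamini-Hochberg adjustment).

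The Hsp90aa1 values in DOCA–HS rested on single libraries too. Without DOCA–HS before replicate 2 its log2 fold change was 3.79 in DOCA–HS, where the group before CMG is then 1 library with 2 counts of the gene, and 2.17 on average. Without DOCA–HS after replicate 2 the DOCA–HS value was -0.48. Per 100 counts of Hsp90ab1 it had 0.30 and 0.252 counts in AngII before, 1.30 and 0.489 in AngII after, 0.0817 and 0.828 in DOCA–HS before, and 0.366 and 1.18 in DOCA–HS after. The 95% exact binomial interval of AngII after replicate 1, 0.77 to 2.07, did not meet that of either AngII library before, which ended at 0.618 and 0.739, whereas that of AngII after replicate 2, 0.234 to 0.902, met both.

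**Figure D3:**
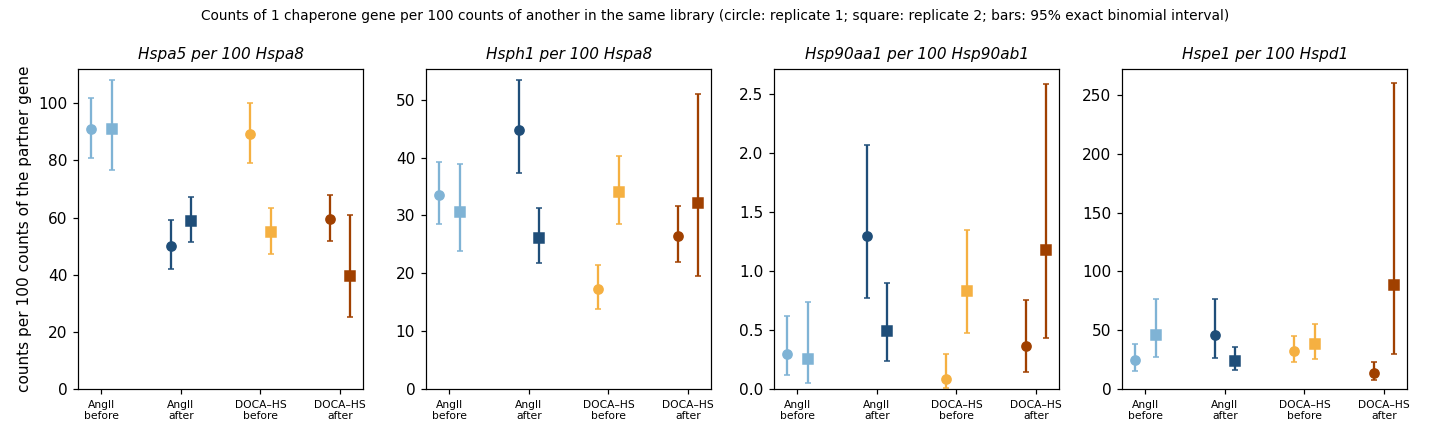
Counts of Hspa5 and of Hsph1 per 100 counts of Hspa8, of Hsp90aa1 per 100 of Hsp90ab1 and of Hspe1 per 100 of Hspd1 (vertical axes) in each library by group (horizontal axis), with 95% exact binomial intervals. Hspa5 sits between 89.1 and 91.1 in 3 of the 4 libraries before CMG, at 54.8 in the other, DOCA–HS before replicate 2, and between 39.7 and 59.4 in the 4 libraries after, and every ratio differs between replicates in at least 1 group.

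On the TMM scale the 3 detected members of the cytosolic HSP70 cycle differed more between replicates than between group means. Hspa8, the constitutive HSP70, was at 49.3 and 49.1 CPM in AngII before, 65.7 and 43.6 CPM in AngII after, 32.9 and 55.6 CPM in DOCA–HS before, and 44.6 and 54.8 CPM in DOCA–HS after. On the TMM scale the groups overlapped. With total counts and with counts outside hemoglobin, where the AngII medians of all genes rose to 0.36 and 0.38, both AngII libraries of Hspa8 after CMG lay above both before. The log2 fold change was 0.17 in both models (SE 0.34, interval -0.61 to 0.96 in AngII; SE 0.50, interval -0.97 to 1.31 in DOCA–HS), and in DOCA–HS it was -0.60 with total counts and -0.28 with counts outside hemoglobin, above the medians of all genes there, -0.76 and -0.41. Its largest fold between replicates was 1.69 and that between group means was 1.24.

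Hsph1, the HSP110 that exchanges nucleotide on HSP70, was at 16.6 and 15.0 CPM in AngII before, 29.4 and 11.4 CPM in AngII after, 5.70 and 18.9 CPM in DOCA–HS before, and 11.8 and 17.6 CPM in DOCA–HS after. The highest and the lowest library, AngII after replicate 1 and DOCA–HS before replicate 1, were 5.16-fold apart on the TMM scale, where the groups overlapped in each comparison. With counts outside hemoglobin, where the AngII median of all genes rose to 0.38, both AngII libraries of Hsph1 after CMG lay above both before. The log2 fold change was 0.38 in AngII (SE 0.45, interval -0.66 to 1.41) and 0.23 in DOCA–HS (SE 0.62, interval -1.18 to 1.65), where it was -0.49 with total counts and -0.18 with counts outside hemoglobin, above the medians of all genes, -0.76 and -0.41. Leaving out AngII after replicate 2 gave 0.91 in AngII, and leaving out AngII after replicate 1 gave -0.51. Per 100 counts of Hspa8, Hsph1 had 44.8 counts in AngII after replicate 1 (interval 37.4 to 53.4) and 17.3 in DOCA–HS before replicate 1 (interval 13.9 to 21.4), against 26.1 to 34.0 in the other 6 libraries.

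Dnajb1, the HSP40 partner of inducible HSP70, was at 14.7 and 17.4 CPM in AngII before, 13.9 and 11.7 CPM in AngII after, 9.40 and 17.3 CPM in DOCA–HS before, and 10.9 and 24.6 CPM in DOCA–HS after. The AngII libraries after CMG lay below those before on the TMM scale and overlapped them with total counts and with counts outside hemoglobin. The log2 fold change was -0.30 in AngII (SE 0.29, interval -0.98 to 0.38; 0.06 with total counts and 0.07 with counts outside hemoglobin, below the medians of all genes, 0.36 and 0.38) and 0.35 in DOCA–HS (SE 0.56, interval -0.92 to 1.63; -0.63 and -0.19 with these scalings, above the medians of -0.76 and -0.41).

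The mitochondrial pair shares a promoter region, and whether the 2 genes changed alike was not tested. Hspd1 had 9 to 153 counts a library and Hspe1 had 8 to 50. Hspd1 was at 8.56 and 8.78 CPM in AngII before, 7.99 and 9.75 CPM in AngII after, 8.46 and 10.6 CPM in DOCA–HS before, and 8.91 and 6.33 CPM in DOCA–HS after. Hspe1 was at 2.12 and 4.05 CPM, 3.68 and 2.36 CPM, 2.77 and 4.03 CPM, and 1.23 and 5.62 CPM in the same order. On the TMM scale Hspd1 spanned 1.68-fold over the 8 libraries and Hspe1 4.58-fold, whereas with total counts the spans were 7.32-fold and 2.94-fold. The lowest and the highest Hspe1 level were those of the 2 libraries of DOCA–HS after, from 16 and 8 counts.

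Per 100 counts of Hspd1, Hspe1 had 13.8 to 46.2 counts in 7 libraries, and 88.9 in DOCA–HS after replicate 2, from 8 against 9 counts and with a 95% exact binomial interval of 29.8 to 260. The log2 fold change after against before CMG was 0.06 for Hspd1 (SE 0.29, interval -0.60 to 0.73) and 0.01 for Hspe1 (SE 0.44, interval -1 to 1.02) in AngII. In DOCA–HS it was -0.26 for Hspd1 (SE 0.45, interval -1.29 to 0.77) and -0.57 for Hspe1 (SE 0.73, interval -2.23 to 1.09). Leaving out DOCA–HS after replicate 2 gave -1.42 for Hspe1, and leaving out DOCA–HS after replicate 1 gave 0.76.

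Between the models, 0 of the 8 members were called before CMG, where 0.838% of genes were, and 0 after CMG, where 1.40% were. None had an unadjusted p of at most 0.05 in either comparison, as 3.38% and 2.79% of genes had. Before CMG the Hspa5 level was lower in DOCA–HS than in AngII without overlap on the TMM scale, as that of 21.2% of genes was, with a log2 difference of -0.58 (SE 0.36, interval -1.38 to 0.21), and the sign turned with total counts (0.21) and with counts outside hemoglobin (0.13). After CMG the members' log2 differences ran from -0.51 for Hsph1 to 0.43 for Hsp90ab1. These comparisons share libraries with those over CMG.

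The members were also compared library by library. On the TMM scale, centred on each gene's mean over the 8 libraries, the median log2 level of the 8 detected members was 0.01 and 0.06 in AngII before, 0.25 and -0.29 in AngII after, -0.53 and 0.28 in DOCA–HS before, and -0.33 and 0.52 in DOCA–HS after. DOCA–HS before replicate 1 was the lowest library for Hsp90aa1, Hsp90ab1, Hspa8, Hsph1 and Dnajb1 on the TMM scale, at -0.50 to -1.88, while Hspa5 and Hspd1 were at -0.09 and -0.02 there. With total counts it was the lowest for Hsp90aa1 only, and the highest for Hsp90ab1, Hspa5, Hspd1 and Hspe1. With counts outside hemoglobin it was the lowest for Hsp90aa1 and Hsph1.

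**Figure D4:**
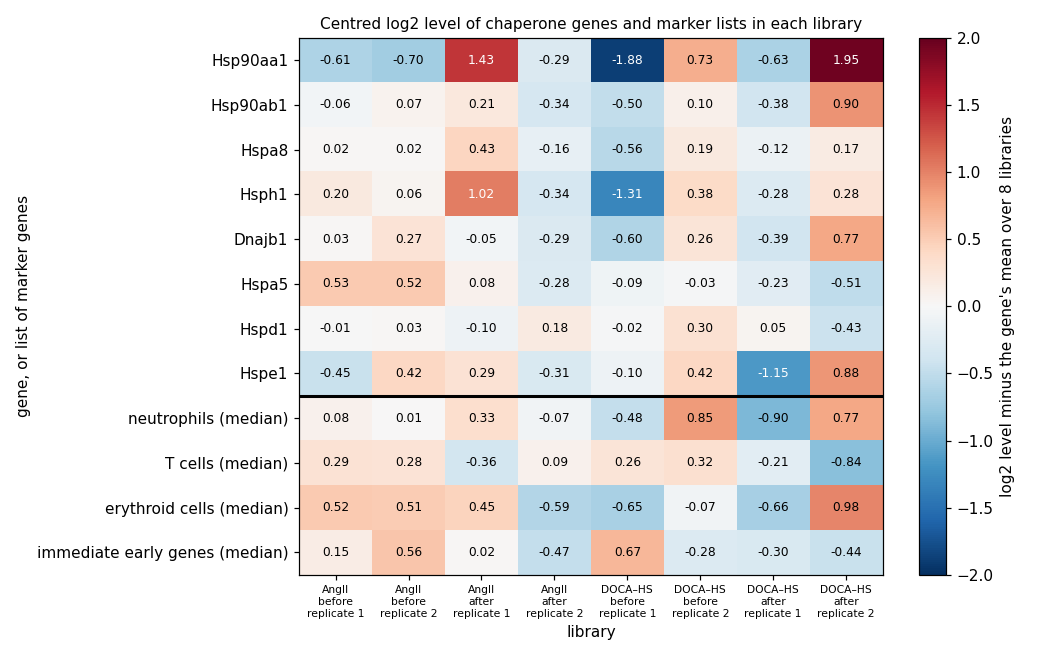
Log2 level of 8 chaperone genes in each library minus the gene's mean over the 8 libraries (colour and number), above the median of the same quantity over 4 marker lists. Hsp90aa1 and Hsph1 are lowest in DOCA–HS before replicate 1, at -1.88 and -1.31, and Hspa5 is highest in the AngII libraries before CMG, at 0.53 and 0.52.

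Marker genes of blood cells also differed between these libraries. The summed level of 11 neutrophil markers was 278 and 274 CPM in AngII before, 266 and 242 CPM in AngII after, 153 and 470 CPM in DOCA–HS before, and 211 and 593 CPM in DOCA–HS after, with at most 1 marker at 0 in any library. The high value of 593 CPM rests on the scaling. As a percentage of all counts the same library, DOCA–HS after replicate 2, was the lowest, at 0.0203, and DOCA–HS before replicate 2 was the highest, at 0.0542. These markers did not all move alike. In DOCA–HS after, S100a8 was at 23.1 and 167 CPM and Mmp9 at 3.46 and 12.7 CPM. Csf3r went the other way there, at 62.2 and 16.9 CPM, as did Cxcr2, at 10.4 and 0.703 CPM, and Mmp8, at 6.91 and 3.51 CPM. The median centred log2 level of the 9 erythroid markers was 0.52 and 0.51 in AngII before, 0.45 and -0.59 in AngII after, -0.65 and -0.07 in DOCA–HS before, and -0.66 and 0.98 in DOCA–HS after, so that it was low in DOCA–HS before replicate 1 too. The part of either cell type in the members' levels was not tested.

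Likeness between genes was measured as the root mean square difference of these centred log2 levels over the 8 libraries, as a description. Among members the closest were Hsp90ab1 and Dnajb1, at 0.15, and Hspd1 and Hspe1 stood at 0.70, near the far end for pairs without Hsp90aa1. The genes closest to Hspa8 among 7402 were Clk3 (0.109), Cycs (0.143), Stip1 (0.156), Cdk16 (0.161) and Fopnl (0.162). Stip1 encodes HOP, which links HSP70 to HSP90. Closest to Hsp90aa1 were Pglyrp1 (0.508), Nkr-p1c (0.592), Ggt5 (0.619), Celf5 (0.643) and Slpi (0.647). These lay further off than the genes closest to Hspa8, and Hsp90aa1 had only 2 to 18 counts a library. Closest to Hspd1 were Mta2 (0.073), Ripk1 (0.082), Cap1 (0.086), Vps35 (0.088) and Hnrnpu (0.1).

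The wider chaperone network gave few genes past an unadjusted p of 0.05. Of 86 tested genes in 5 lists of other chaperones and their partners, 0 were called in AngII, where 1.24% of all genes were. There 6 had such a p, 5 of them lower and 1 higher, a share to be read against the 6.65% of all genes. In DOCA–HS 1 of 86 was called, Ddit3, against 2.05% of all genes. Ddit3 was also the only 1 with such a p, against 3.17%. The median log2 fold change of these genes was -0.14 in AngII and 0.09 in DOCA–HS.

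Of the 5 lower ones in AngII, 3 were co-chaperones. Ppid, the cyclophilin 40 that binds HSP90, was at 4.16 and 6.58 CPM before and 2.40 and 2.73 CPM after in AngII, and at 3.37 and 4.56 CPM before and 2.15 and 0.703 CPM after in DOCA–HS. It was lower after CMG without overlap in both models, as 4.51% of all genes tested in both were. Its average log2 fold change was -1.05 (SE 0.30, unadjusted p = 0.00511, adjusted p = 1 by edgeR's test with Benjamini-Hochberg adjustment). For the average change 3.90% of all genes had an unadjusted p of at most 0.05. The Ppid value of 0.703 CPM came from 1 count. In AngII its log2 fold change was -1, beside -1.39 for Dnajc21, an HSP40 of ribosome assembly, and -0.75 for Dnajc9, an HSP40 of histone handling. The median of the 22 constitutive co-chaperones tested was -0.29 in AngII and 0.21 in DOCA–HS. In DOCA–HS after, that list's median centred log2 level was -0.10 in replicate 1 and 0.35 in the sparse replicate 2.

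The TRiC chaperonin, which folds actin and tubulin, and its partner prefoldin had 12 tested genes. In AngII 11 of the 12 had a negative log2 fold change, with a median of -0.29, where that of all genes was -0.01, and 1 of them, Pfdn1, had an unadjusted p of at most 0.05 (-0.89, SE 0.31). In DOCA–HS 5 of the 12 were negative and the median was 0.21. Total counts moved the median of all genes by more than this, to 0.36 in AngII and -0.76 in DOCA–HS. The 2 libraries of DOCA–HS after also differed. The list's median centred log2 level was -0.36 in replicate 1 and 0.54 in the sparse replicate 2. The mitochondrial chaperones and proteases had a median of -0.06 in AngII, with Htra2, a protease, at 0.87 (SE 0.34), and of -0.42 in DOCA–HS. The 17 inducible chaperones and HSF1 targets tested had medians of -0.05 and 0.26, and none had an unadjusted p of at most 0.05 in either model.

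**Figure D5:**
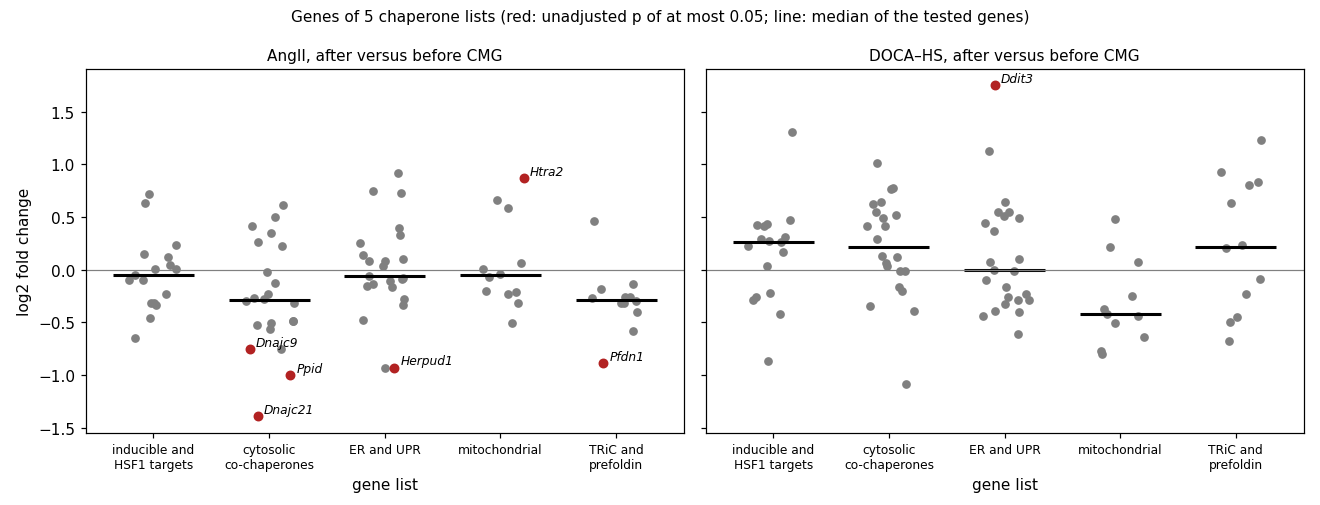
Log2 fold change after against before CMG (vertical axis) of each tested gene of 5 chaperone lists (horizontal axis) in AngII and in DOCA–HS, with medians as lines and genes with an unadjusted p of at most 0.05 in red. Most genes lie within 1 of 0 in both models, and the 1 red gene of DOCA–HS, Ddit3, is not among the 6 of AngII.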

How the data were processed

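The authors sequenced single-end libraries of whole blood, mapped the reads with HISAT2 (rat genome rn6), and assigned them to genes using HTSeq 2.0.3. The deposited values are raw counts per gene and library, without normalization. The study's methods state that hemoglobin annotations were removed, while the deposited counts hold them. Groups came from the sample labels. Genes were filtered with edgeR's default filter for the libraries fitted, scaled by TMM and tested with edgeR 4.0.16 (quasi-likelihood, R 4.3.3), with each model fitted alone for its change over CMG and all 8 libraries in 1 fit for the average, the difference and the comparisons between models. p-values were adjusted by Benjamini-Hochberg over all genes tested. The script was tested on simulated data. DESeq2 1.42.0, other scalings, no filter, 1 fit for all libraries, a replicate block and leaving out each library were the alternatives. Replicates differed by more than sampling noise. The 10 members and the lists were chosen with earlier results of these data known. From each list at most the 3 genes of smallest unadjusted p with a mean of at least 10 counts are named per comparison. Of 17446 gene names, 15493 matched a GRCr8 symbol, and promoter sequences are from RefSeq on that build. Count intervals are exact Poisson at 95%.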

Additional observations from a re-analysis of the deposited data

How the results depend on the processing

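No member reached an adjusted p under 0.05 in any alternative, and Hspa5 kept a negative log2 fold change over CMG in both models and on average in all of them. Hsp90aa1 in AngII was called without the filter on low counts, where 1 member was called (1.80% of all genes) and 1 had an unadjusted p of at most 0.05 (6.95%). For the average change 1 member had such a p without the filter (Hsp90aa1, 1.17; 4.59% of all genes) and 1 with DESeq2 (Hspa5, -0.44; 4.72%). The replicate block, which treats libraries of 1 number as paired, gave 1 called member (0.425% of all genes) and 1 with such a p (4.49%) for the average change, Hsp90aa1 at 1.67 (unadjusted p = 0.00616, adjusted p = 0.957 by edgeR's test with Benjamini-Hochberg adjustment), and turned the difference of the Hsph1 change to 0.29. It called 165 genes at an adjusted p under 0.05 in AngII, 5 for the difference and 0 in DOCA–HS and on average, none of them members. The labels do not say that numbers pair libraries. The deviations of same-numbered libraries correlated at 0.41 in AngII and 0.31 in DOCA–HS over 7994 genes, from 2 pairs in each model.

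The scaling turned signs of other members. Total counts moved the median of all genes to 0.36 in AngII, -0.76 in DOCA–HS, -0.15 for the average, -1.21 for the difference, 0.86 before CMG and -0.35 after CMG. Counts outside hemoglobin moved it to 0.38, -0.41, 0.04, -0.89, 0.78 and -0.10 in the same order. Each value below is to be read against the medians of its own scaling. With total counts the AngII change was 0.06 for Dnajb1 and 0.30 for Hsp90ab1. The DOCA–HS change was -0.63 for Dnajb1, -0.56 for Hsp90ab1, -0.60 for Hspa8 and -0.49 for Hsph1, and the average was -0.13 for Hsp90ab1 and -0.06 for Hspa8. The difference between models was -0.69 for Dnajb1, -0.85 for Hsp90ab1, -0.71 for Hspa5 and -1.08 for Hspa8. DOCA–HS minus AngII before CMG was 0.44 for Dnajb1, 0.56 for Hsp90ab1, 0.21 for Hspa5, 0.55 for Hspa8 and 0.23 for Hsph1, and after CMG -0.25 for Dnajb1 and -0.29 for Hsp90ab1. With counts outside hemoglobin the AngII change was 0.07 for Dnajb1 and 0.30 for Hsp90ab1, and the DOCA–HS change -0.19 for Dnajb1, -0.06 for Hsp90ab1, -0.28 for Hspa8 and -0.18 for Hsph1. The difference was then -0.25 for Dnajb1, -0.37 for Hsp90ab1, -0.43 for Hspa5 and -0.77 for Hspa8, and DOCA–HS minus AngII before CMG 0.41 for Dnajb1, 0.51 for Hsp90ab1, 0.13 for Hspa5, 0.52 for Hspa8 and 0.26 for Hsph1. Hspe1 in AngII, near 0, was -0.03 with DESeq2, -0.02 with its size factors, and -0.01 without the filter or with all 8 libraries in 1 fit. Hspa8 was -0.03 for the difference without the filter, and Hsp90aa1 0.20 after CMG with DESeq2.

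For the average change, leaving out each library in turn gave 0 to 1 called members, where 0.459% to 0.978% of all genes were called. It gave 0 to 1 members with an unadjusted p of at most 0.05 by edgeR's test, where 2.09% to 9.45% of all genes had one. Within a model such a fit has 1 library in 1 arm, whose spread is taken from the other group, so only log2 fold changes are given there. In AngII values ran from -0.44 to 0.44 for Hspe1, -0.21 to 0.44 for Hspa8, -0.51 to 0.91 for Hsph1, -0.38 to 0.22 for Hsp90ab1 and -0.10 to 0.13 for Hspd1. In DOCA–HS they ran from -0.16 to 0.61 for Hspa8, -0.38 to 1.36 for Hsph1, -1.42 to 0.76 for Hspe1, -0.26 to 0.90 for Dnajb1, -0.48 to 3.79 for Hsp90aa1 and -0.21 to 1.07 for Hsp90ab1, and on average from -0.07 to 0.73 for Hsph1, -0.56 to 0.23 for Hspe1 and -0.12 to 0.41 for Hsp90ab1. The difference ran from -2.11 to 1.89 for Hsp90aa1, -0.82 to 0.99 for Hsph1, -0.37 to 0.46 for Hspa8, -1.42 to 0.75 for Hspe1 and -0.16 to 1.10 for Hsp90ab1. DOCA–HS minus AngII before CMG ran from -0.27 to 0.65 for Hspe1, -0.82 to 0.14 for Dnajb1, -0.56 to 0.12 for Hsp90ab1, -0.64 to 0.20 for Hspa8, -1.53 to 0.28 for Hsph1, -2.21 to 1.67 for Hsp90aa1 and -0.09 to 0.32 for Hspd1. After CMG it ran from -1.59 to 1.33 for Hsp90aa1, -0.42 to 0.17 for Hspa8, -1.06 to 0.31 for Hsph1, -1.24 to 0.92 for Hspe1, -0.23 to 0.92 for Dnajb1 and -0.34 to 0.91 for Hsp90ab1. Hspa5 ran from -0.84 to -0.43 in AngII and from -0.45 to -0.16 in DOCA–HS.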
